A study of Mus musculus with 12 samples.

Results

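The 63 genes described here encode parts of the motile cilium or control its assembly, and they were selected by gene symbol from the 14881 genes of the count table. The symbols were those of dynein heavy chains (Dnah), dynein assembly factors (Dnaaf), cilia and flagella associated proteins (Cfap), tektins (Tekt), radial spoke proteins (Rsph), the nexin-dynein regulatory complex (Drc), sperm-associated antigens of the central pair (Spag6, Spag16, Spag17), adenylate kinases (Ak7, Ak8, Ak9), and Foxj1, Rfx2, Hydin and Tmem212. The rule used symbols only, though it was chosen with earlier results of these data known. In the gene annotation 79 symbols matched, and the other 16, among them Dnaaf1, Cfap53, Tekt2 and Tekt3, had no row in the count table and were not analysed here. All 63 genes passed the filter on low counts, which removed 0 genes of the table. The lowest total of any gene in the table was 147 reads over the 12 libraries.

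Hippocampal RNA from 12 male mice was sequenced, 1 hippocampus of 1 mouse per library, and the mice, aged between 22 and 26 months, were of the APPswe strain, which carries a mutant amyloid precursor protein transgene. Every mouse was given 5 µL of AAV1, a viral vector, by injection into the cisterna magna, together with weekly antibody into the peritoneum at 40 mg/kg, and no group was left untreated. The virus carried eGFP, a fluorescent control protein, or mVEGF-C, the mouse form of a factor that makes lymphatic vessels grow, each behind the CMV promoter, which is not specific to a cell type. The antibody was mIgG, the control, or mAdu, murine aducanumab, which binds aggregated amyloid beta. Each of the 4 groups had 3 mice, numbered 1 to 3 for eGFP+mIgG (both controls), 4 to 6 for eGFP+mAdu, 7 to 9 where mVEGF-C came with mIgG, and 10 to 12 for mVEGF-C+mAdu (both active treatments). The series asks whether meningeal lymphatic function modulates antibody treatment against amyloid beta.

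Motile cilia beat because dynein motors on their outer microtubule doublets slide one doublet against the next. Radial spokes, the central pair and the nexin-dynein regulatory complex coordinate this sliding, and tektins and many Cfap proteins line or brace the doublets. In the brain such cilia cover the ependymal cells of the ventricle wall, where they move cerebrospinal fluid, and FOXJ1 and the RFX factors switch on the genes for building them. Choroid plexus epithelium and other cells of the ventricles also express part of this set, and some Cfap genes are expressed in most cell types, so that a bulk library does not assign a read to ependymal cells.

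RFX factors bind the X-box, which has a pair of inverted arms, and FOXJ1 is a forkhead factor, so that the promoters of the 63 genes were searched for an X-box arm, for the full pair and for a forkhead motif. RefSeq promoter windows, from 250 bases before to 50 bases after a transcription start on GRCm38.p6, were matched for 53 of the 63 genes (57 windows). The X-box arm GTTGCCAT, on either strand, was present in 6 of the 57 windows (5 genes), or 10.5%, against 1.35% of all 32851 windows. The full pair, GTTNCC followed after 2 bases by GGNAAC, was present in 2 of 57 windows (3.51% against 0.451%), and the forkhead motif GTAAACA in 3 of 57 (5.26% against 3.65%). These are matches of letters and were not tested. The sites of Tekt1 and Cfap161 are shown because these genes changed in the comparisons below, and those of Cfap44, Ak9 and Ak7 as examples of the arm, the pair and the forkhead motif elsewhere in the set. Capitals mark the motif, on the strand of the gene from 5′ to 3′.
Tekt1, X-box arm, chr11:72361879-72361908, minus strand: gcgtccgtccgGTTGCCATagagaccgcag
Cfap161, X-box arm reversed, chr7:83794862-83794891, minus strand: gcctggtcgtcATGGCAACgaagcacgcta
Cfap44, X-box arm reversed, chr16:44394767-44394796, plus strand: gggacgttgctATGGCAACcgcagtaaacg
Ak9, pair, chr10:41303915-41303944, plus strand: gcccacagGTTTCCAAGGCAACcgcctaac
Ak7, forkhead reversed, chr12:105705840-105705868, plus strand: agtagagaaatTGTTTACccaagcagagc

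The motif began 15 bases upstream of a RefSeq start in Tekt1, 41 in Cfap161, 21 in Cfap44, 11 in Ak9 and 131 in Ak7. In the GENCODE annotation the stretches printed for Tekt1, Ak9 and Ak7 held 0 exonic bases of their gene, that for Cfap44 held 1 and that for Cfap161 held 19.

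The libraries held between 23213612 and 29295266 reads assigned to genes. Markers of hippocampal neurons had a median between 73.8 and 95.5 read counts scaled to library size (CPM) in each library and markers of meningeal fibroblasts one between 3.58 and 6.93 CPM, so that the libraries went with the dissected hippocampus of the series text rather than with the meninges named as the tissue source. In every group the last-numbered library (mice 3, 6, 9 and 12) lay between the other 2 for between 45.0% and 49.8% of all genes, where 3 interchangeable libraries would share this place equally. App, the gene of the amyloid precursor, was counted at 1340 CPM in mouse 5 and at 3720 CPM in mouse 6, and from 4720 to 5510 CPM in the other 10 mice. The median of the set in each comparison is therefore also given without mice 3, 6, 9 and 12 together and, where the comparison uses them, without mice 5 and 6.

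The motile cilium genes were lowly expressed and spanned a wide range. Mean levels over the 12 mice ran from 0.802 CPM (Cfap299) to 95.5 CPM (Cfap36), with a median of 4.01 CPM, and 36 of the 63 genes were below 5 CPM. The smallest value in any library was 11 reads. Divided also by exon length (RPKM), which allows genes to be compared, Cfap36 was highest at 34.8 RPKM, followed by Cfap298 at 13.7, Cfap97 at 9.02, Cfap300 at 8.4, Rsph9 at 7.89, Cfap20 at 6.98, Tmem212 at 5.72 and Foxj1 at 4.78 RPKM. Dnah8, a dynein heavy chain known mainly from sperm, was lowest at 0.0422 RPKM. Of the Cfap298 exon bases 53.6%, and of the Dnaaf2 exon bases 71.4%, also belong to other annotated genes, so that the values of both are uncertain, and reads may be split among the near-identical genes Dnah7a, Dnah7b and Dnah7c, Rsph3a and Rsph3b, and Spag6 and Spag6l.

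The genes differed in how far they varied between mice, and the abundant Cfap genes varied least. The ratio of the highest to the lowest library was 1.07 for Cfap36, 1.08 for Cfap298 and 1.15 for Cfap97, and it was largest for Dnah3 (3.62), Tmem212 (3.1), Dnah10 (3.02), Cfap57 (2.81) and Ak7 (2.69). It reached 2 or more in 20 of the 63 genes, with a median of 1.62. Many of the variable genes have few reads, and the part of counting error in this spread was not tested.

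Mouse 10 (mVEGF-C+mAdu) was the lowest of the 12 mice in 29 of the 63 genes, or 46.0%, against 11.5% of all genes, and mouse 1 (eGFP+mIgG) was the highest in 23 of them, or 36.5%, against 12.4% of all genes. In mouse 10, 24 of the 63 genes were below 75% of their median over the 12 mice. Of the 63 genes, 52 were below their own mean in mouse 10 and 48 in mouse 12, but 30 in mouse 11 of the same group. Mice 2 and 5, in the control-vector groups, were also below it for 43 and 37 genes.

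**Figure D1:**
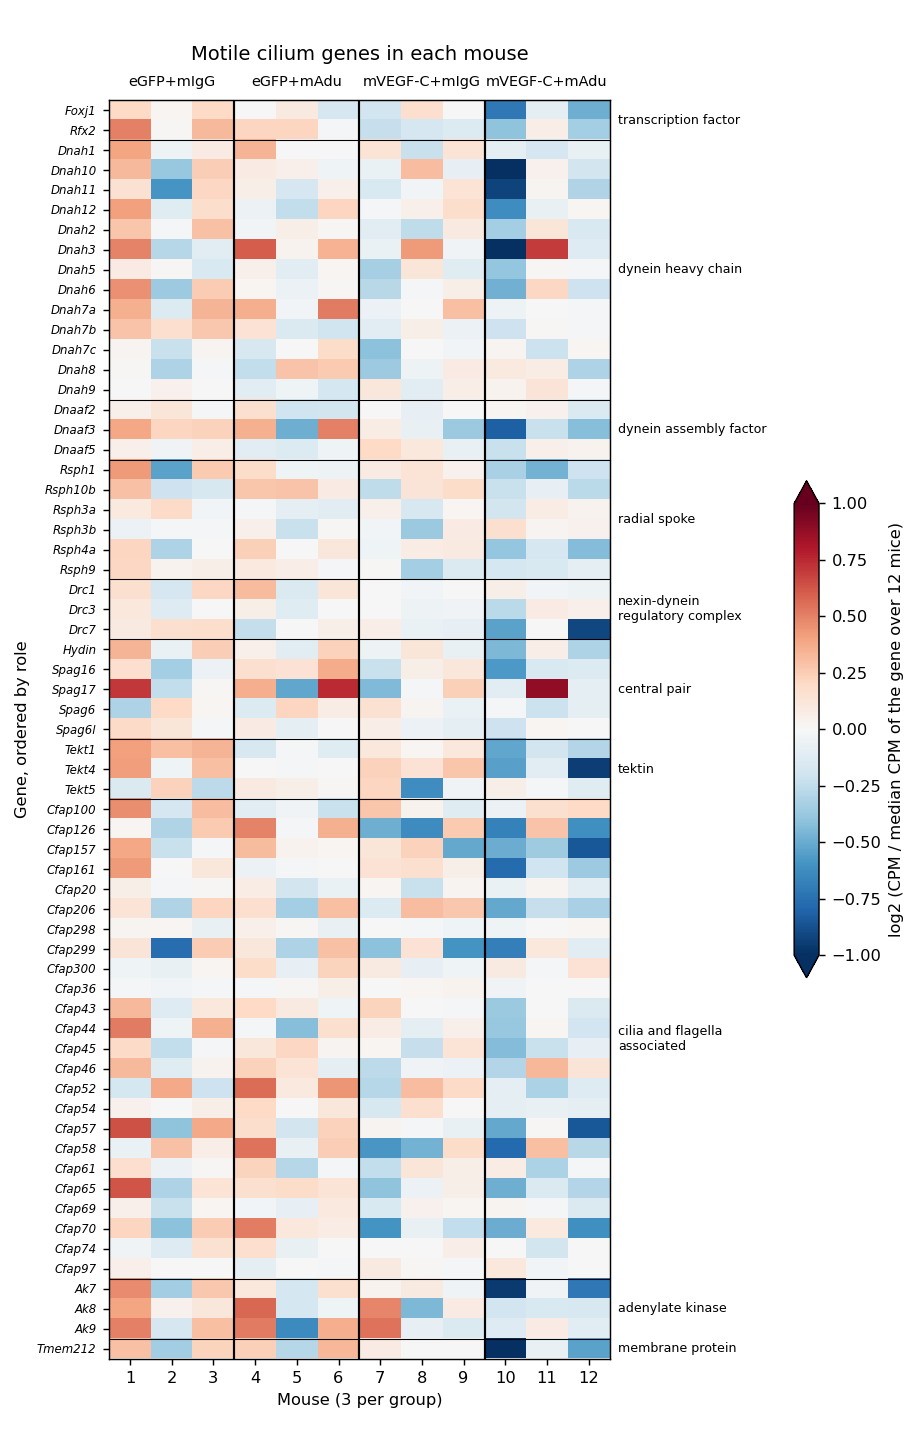
Each row is 1 of the 63 motile cilium genes, ordered by role, each column 1 mouse, and the colour is log2 of CPM over the gene's median CPM in 12 mice, with colours saturated beyond 1 in either direction. Blue cells gather in mice 10 and 12 of the mVEGF-C+mAdu group and red cells in mouse 1, while the rows of Cfap36, Cfap298 and Cfap97 stay near white throughout.

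The average level of the set (the mean over the 63 genes of log2 CPM centred on each gene's own mean) was 0.23, -0.09 and 0.12 in the eGFP+mIgG mice, 0.15, -0.04 and 0.11 in the eGFP+mAdu mice, -0.03, -0.01 and 0.03 in the mVEGF-C+mIgG mice, and -0.31, 0.01 and -0.18 in the mVEGF-C+mAdu mice. Mice 10 and 12 were below all other mice, and mouse 11 lay within the range of the other groups. The group means were 0.09 ± 0.16, 0.07 ± 0.10, -0.00 ± 0.03 and -0.16 ± 0.16 in the same order (SD, n = 3).

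The level of the choroid plexus markers was also lowest in mice 10 and 12, though the levels parted in mice 2, 5 and 11. Of 20 markers 15 were measured, and their mean centred level was between 0.10 and 0.28 in the 6 mice with the eGFP vector, between -0.05 and 0.06 with mVEGF-C and mIgG, and -0.61, -0.17 and -0.25 in mice 10, 11 and 12. In mice 2 and 5, where the motile cilium set was at -0.09 and -0.04, it was 0.11 and 0.10. Their summed level ran from 344 to 423 CPM in eGFP+mIgG, 379 to 386 in eGFP+mAdu, 331 to 407 in mVEGF-C+mIgG and 327 to 330 CPM in mVEGF-C+mAdu. The transthyretin gene Ttr, the most abundant transcript of choroid plexus epithelium, was at 30.4, 74.2 and 50.1 CPM in eGFP+mIgG, 63.1, 46.1 and 59.6 in eGFP+mAdu, 19.2, 29.1 and 27.4 in mVEGF-C+mIgG and 18.8, 14.3 and 16.8 CPM in mVEGF-C+mAdu. With mVEGF-C and mIgG, Ttr was already below the range of the eGFP groups, while the average level of the motile cilium set lay within it. Whether tissue of the ventricle carried into the dissection had a part in the level of the set was not tested, and in bulk tissue fewer ciliated cells and less RNA per cell cannot be told apart.

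**Figure D2:**
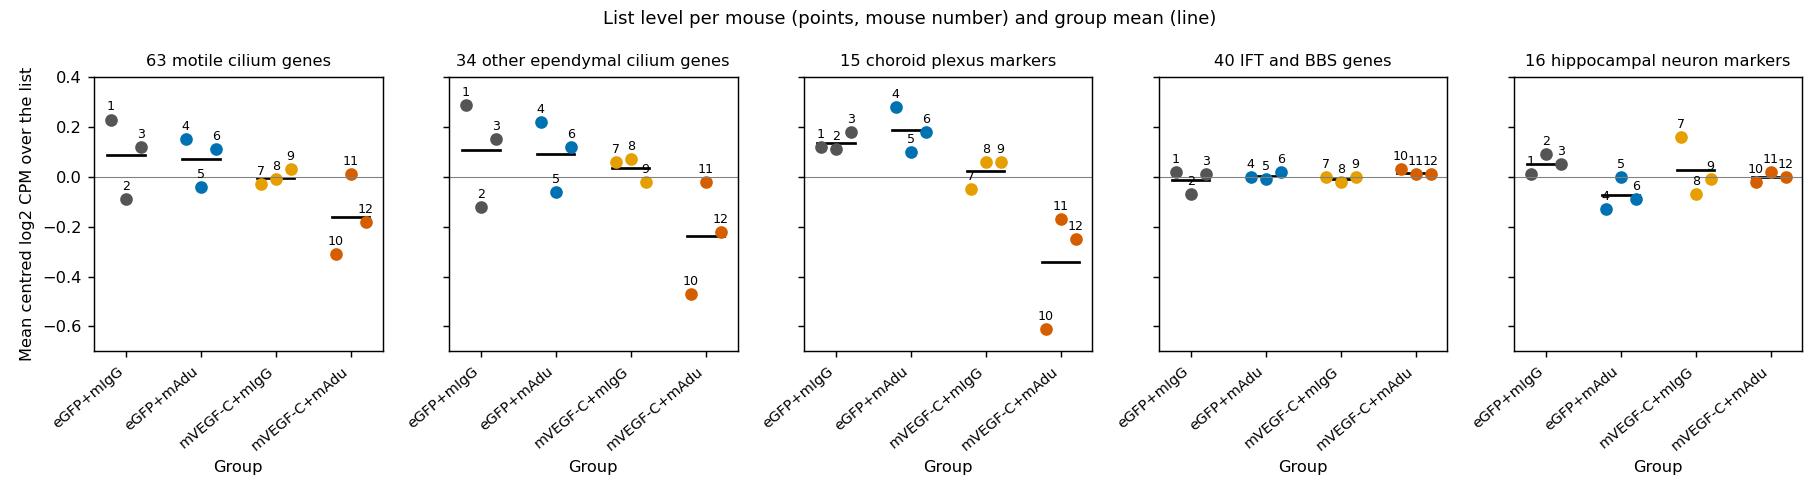
Points are mice, labelled by number, in the 4 groups on the horizontal axis, and the vertical axis is the mean centred log2 CPM over each list, with a line at the group mean. Motile cilium genes, other ependymal cilium genes and choroid plexus markers are lowest in mouse 10, at -0.31, -0.47 and -0.61, while the listed genes of intraflagellar transport and the BBSome stay between -0.07 and 0.03 in all mice.

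The comparison of both active treatments together with both controls (mVEGF-C+mAdu against eGFP+mIgG) had the most of these genes past the test's threshold. Of the 63 genes 3 fell, namely Tekt1, Foxj1 and Cfap161 (edgeR's quasi-likelihood test, Benjamini-Hochberg adjusted p under 0.05 over all 14881 genes). They are 3 of 63, beside 2.18% of all genes called in this comparison by edgeR's test (324 genes, of which 177 rose and 147 fell), and 0 of the 63 rose. The log2 change was negative in 53 of the 63 genes with a median of -0.24, where the median of all genes was -0.004. At an unadjusted p under 0.05, 20 genes of the set were lower and 0 higher (31.7%, against 20.4% of all genes in either direction). The 3 mice of the combined group were all below the 3 double controls in 12 genes and all above them in 1 (Rsph3b), where 13.4% of all genes were separated downwards and 13.9% upwards. Leaving out mouse 1, 3, 10 or 12 left 0 of the 63 genes past the threshold, as did leaving out mice 3, 6, 9 and 12 together (median -0.22), whereas 9 passed without mouse 2. EdgeR's test then called 21, 56, 43 and 12 of all 14881 genes without mouse 1, 3, 10 and 12. It called 2 without mice 3, 6, 9 and 12 together and 397 without mouse 2. The median of the set was -0.15 without mouse 1 (50 genes negative), -0.16 without mouse 10 (51 negative) and -0.33 without mouse 2 or mouse 11 (54 and 57 negative). At an unadjusted p under 0.05 there were 8 genes of the set without mouse 1, 11 without mouse 10 and 29 without mouse 2. The counts over all 14881 genes were 2056, 2167 and 3056 in the same order.

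Foxj1, the transcription factor at the head of the motile cilium programme, was at 15, 13.2 and 15 CPM in the eGFP+mIgG mice, 13.1, 13.9 and 11.6 CPM in the eGFP+mAdu mice, 11.4, 14.7 and 13.0 CPM in the mVEGF-C+mIgG mice, and 7.95, 12.2 and 9.3 CPM in the mVEGF-C+mAdu mice. Its level in mouse 11 overlapped with both single-treatment groups but not with the double controls. Against the double controls Foxj1 fell to 0.681 of their level (log2 change -0.55, SE 0.131, edgeR adjusted p = 0.0396). The change was -0.42 without mouse 10 (edgeR adjusted p = 0.161). For Rfx2, the second factor, the values were 2.03, 1.44 and 1.79 CPM in eGFP+mIgG, 1.66, 1.66 and 1.42 in eGFP+mAdu, 1.22, 1.27 and 1.3 in mVEGF-C+mIgG, and 1.08, 1.5 and 1.13 CPM in mVEGF-C+mAdu. All 3 mVEGF-C+mIgG mice were below the 6 eGFP mice, and the combined group overlapped with the double controls through mouse 11 (log2 change -0.52, SE 0.189, edgeR adjusted p = 0.136).

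Tekt1 encodes a tektin, a filament protein inside the doublet microtubules, and it had the smallest p of the set in the combined comparison. Its levels were 4.32, 4.0 and 4.13 CPM in eGFP+mIgG, 2.91, 3.21 and 3.0 in eGFP+mAdu, 3.5, 3.3 and 3.51 in mVEGF-C+mIgG, and 2.27, 2.87 and 2.66 CPM in mVEGF-C+mAdu. The double controls were above every other mouse, and the combined group was below every other mouse, so that either treatment alone was intermediate. Tekt1 fell to 0.625 of the double control (log2 change -0.68, SE 0.122, edgeR adjusted p = 0.0173). Tekt4 went from 1.19 ± 0.189 CPM in the double controls to 0.715 ± 0.204 CPM in the combined group (SD, n = 3), and its log2 change of -0.74 did not pass (edgeR adjusted p = 0.087). Tekt5 was at 6.29 ± 1.18 and 6.38 ± 0.404 CPM in these groups (SD, n = 3).

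Cfap161 was at 4.32, 3.21 and 3.48 CPM in eGFP+mIgG, 3.08, 3.17 and 3.21 in eGFP+mAdu, 3.54, 3.58 and 3.35 in mVEGF-C+mIgG, and 1.88, 2.79 and 2.5 CPM in mVEGF-C+mAdu. The mVEGF-C+mAdu mice were the 3 lowest of the 12. Cfap161 fell to 0.647 of the double control (log2 change -0.63, SE 0.154, edgeR adjusted p = 0.0468), and it no longer passed without mouse 10 (-0.48, edgeR adjusted p = 0.171). Nor did it pass with DESeq2's Wald test (adjusted p = 0.0537) or in an edgeR fit of only these groups (adjusted p = 0.0609). Of the 24 Cfap genes 19 were negative, with a median of -0.18 and a range from -0.7 (Cfap57) to 0.11 (Cfap300). Cfap36, Cfap97 and Cfap298, the most abundant per length, had log2 changes of 0.01, 0.01 and 0.00.

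**Figure D3:**
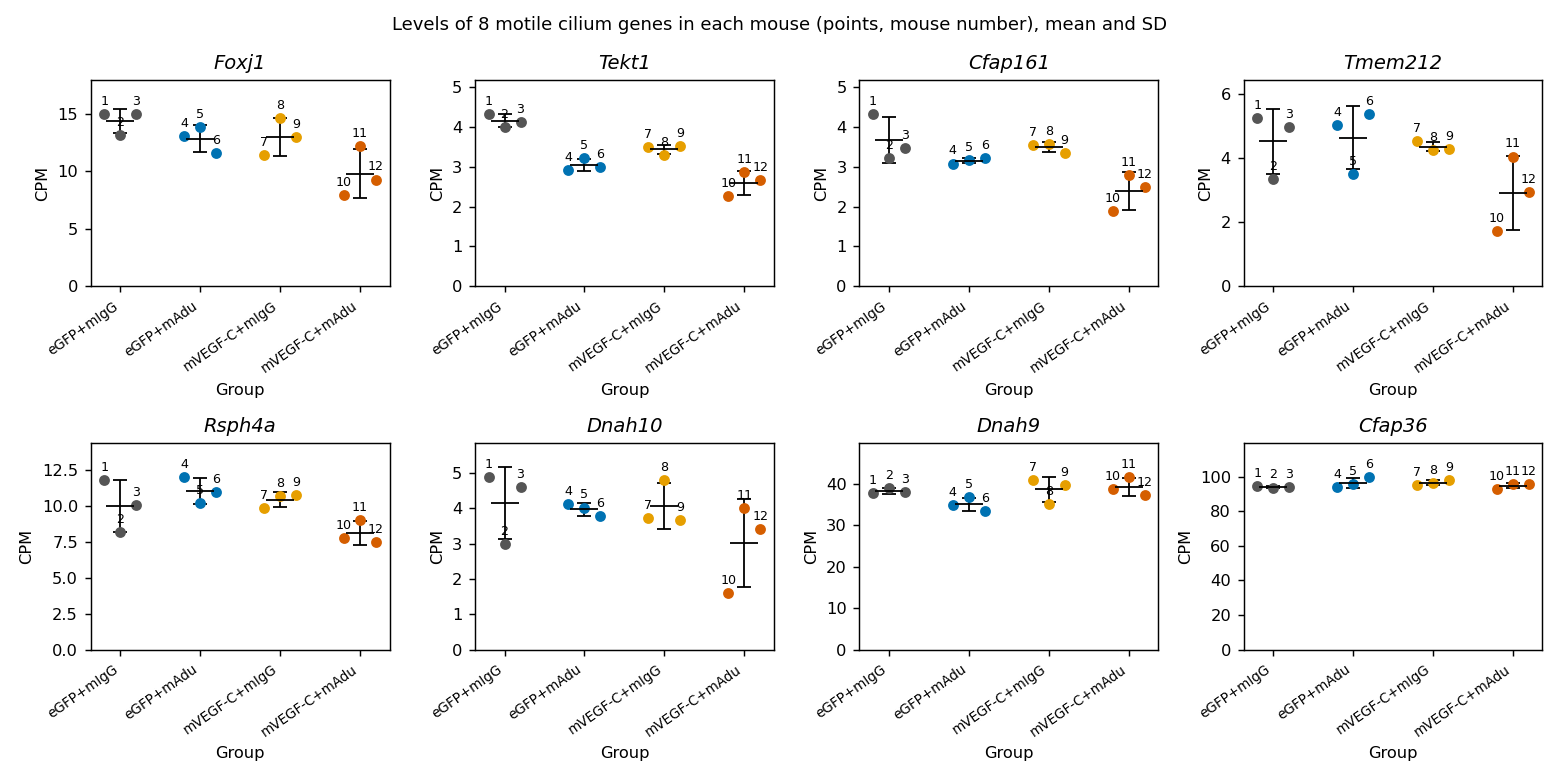
Each panel shows 1 gene, with CPM on the vertical axis from 0, the 4 groups on the horizontal axis, a point per mouse labelled by its number, and the mean with SD of 3 mice. Foxj1, Tekt1, Cfap161, Tmem212, Rsph4a and Dnah10 are lowest on average with mVEGF-C and mAdu, at means of 9.83, 2.6, 2.39, 2.9, 8.11 and 3.01 CPM, while Dnah9 and Cfap36, at 39.2 and 94.8 CPM, overlap there with the double controls.

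Dynein heavy chains are the motors of the outer and inner arms, and 0 of the 13 passed edgeR's test in the combined comparison. At an unadjusted p under 0.05 were 3 of the 13, against 20.4% of all genes. DESeq2 called 0 of the 13 and 436 of all 14881 genes. Limma-voom, a weighted linear model of log2 CPM, called 3 of the 13 (Dnah2, Dnah6 and Dnah7b) and 2660 of all genes. The median log2 change of the heavy chains was -0.27, from -0.49 in Dnah10 to 0.05 in Dnah8, and 11 were negative. Dnah9, an outer arm motor and at 2.37 RPKM the highest heavy chain, stayed between 33.6 and 41.6 CPM in all mice and had a log2 change of 0.04 (SE 0.0602). Dnah10, an inner arm motor, was at 4.15 ± 1.03 CPM in the double controls and 3.01 ± 1.25 CPM in the combined group (SD, n = 3), where mouse 10 alone was at 1.61 CPM. Dnah5 and Dnah11, outer arm motors, had log2 changes of -0.10 and -0.34, and the inner arm motors Dnah1, Dnah2, Dnah6, Dnah7a and Dnah12 had -0.27, -0.32, -0.31, -0.24 and -0.38, none of which passed. Of the 3 assembly factors, which fold and preassemble the arms in the cytoplasm, Dnaaf3 had the most negative change of the whole set (-0.75, SE 0.262, edgeR adjusted p = 0.122) at levels of 1.31 ± 0.0882 and 0.783 ± 0.159 CPM (SD, n = 3), and Dnaaf2 and Dnaaf5 had -0.08 and -0.07.

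Among the 6 radial spoke genes Rsph9 and Rsph4a, which encode parts of the spoke head, had different patterns over the groups. Rsph9 was at 14.9, 13.2 and 13.4 CPM in eGFP+mIgG, 13.8, 13.5 and 12.8 in eGFP+mAdu, 13.0, 10.2 and 11.7 in mVEGF-C+mIgG, and 11.4, 11.6 and 12.1 CPM in mVEGF-C+mAdu. It was lower in both mVEGF-C groups than in the eGFP group with the same antibody, without overlap. Rsph4a was at 11.8, 8.18 and 10.1 CPM in eGFP+mIgG, 12.0, 10.2 and 11.0 in eGFP+mAdu, 9.86, 10.7 and 10.8 in mVEGF-C+mIgG, and 7.76, 9.05 and 7.53 CPM in mVEGF-C+mAdu. Here the combined group was below both single-treatment groups and overlapped with the double controls through mouse 2. Rsph1 was at 5.45, 2.79 and 4.85 CPM in eGFP+mIgG, 4.61, 3.94 and 3.9 in eGFP+mAdu, 4.28, 4.45 and 4.16 in mVEGF-C+mIgG, and 3.23, 2.91 and 3.5 CPM in mVEGF-C+mAdu, so that mouse 2 was the lowest of all. In the combined comparison the log2 changes of Rsph9, Rsph4a and Rsph1 were -0.24, -0.32 and -0.46, and 0 of the 6 spoke genes passed edgeR's test, with 3 at an unadjusted p under 0.05 (0 with DESeq2, and these 3 with limma-voom). Of all genes 20.4% were at an unadjusted p under 0.05, and DESeq2 called 436 and limma-voom 2660.

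The nexin-dynein regulatory complex links neighbouring doublets. Drc1 was at 13.2, 10.5 and 13.6 CPM in eGFP+mIgG, 14.7, 10.7 and 12.8 in eGFP+mAdu, 11.8, 11.6 and 11.8 in mVEGF-C+mIgG, and 12.3, 11.6 and 11.4 CPM in mVEGF-C+mAdu. Drc3 was at 14.4, 12.2 and 13.4 CPM, then 13.9, 12.3 and 13.4, then 13.3, 12.9 and 13.0, and 11.1, 14.1 and 13.8 CPM in the same order of groups. The groups overlapped for both genes, with log2 changes of -0.09 and -0.04 in the combined comparison. Drc7 was at 4.0 ± 0.13 CPM in the double controls and 2.69 ± 0.869 CPM in the combined group (SD, n = 3), a log2 change of -0.57 that did not pass (edgeR adjusted p = 0.0861).

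The 5 central pair genes had a median log2 change of -0.16 in the combined comparison, and 0 passed edgeR's test, with 1 at an unadjusted p under 0.05 (0 with DESeq2, and Hydin with limma-voom). The values for all genes were again 20.4% at an unadjusted p under 0.05, 436 called by DESeq2 and 2660 by limma-voom. Spag6l was at 12.6, 12.0 and 10.9 CPM in eGFP+mIgG, 11.7, 10.4 and 11.1 in eGFP+mAdu, 11.6, 10.6 and 10.4 in mVEGF-C+mIgG, and 9.56, 11.2 and 11.0 CPM in mVEGF-C+mAdu, with overlap between all groups. Hydin, a very large protein of the central pair, had -0.41 (SE 0.157, edgeR adjusted p = 0.154), and Spag17 had 0.07 (SE 0.34).

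Ak7, Ak8 and Ak9 encode adenylate kinases, which regenerate ATP along the cilium, and all 3 were negative. Ak7 went from 6.37 ± 1.73 to 3.97 ± 1.38 CPM (SD, n = 3), with 2.92 and 3.46 CPM in mice 10 and 12 and 5.54 CPM in mouse 11. Its log2 change of -0.70 did not pass edgeR's test (edgeR adjusted p = 0.0821). DESeq2's Wald test called Ak7, among 436 of all 14881 genes. Tmem212, a membrane protein gene used as an ependymal marker, was at 5.23, 3.35 and 4.96 CPM in eGFP+mIgG, 5.02, 3.5 and 5.36 in eGFP+mAdu, 4.52, 4.25 and 4.27 in mVEGF-C+mIgG, and 1.73, 4.04 and 2.94 CPM in mVEGF-C+mAdu. Mice 2 and 5 were low in their groups, and mouse 10 was the lowest of all. Its change of -0.66 had an SE of 0.24 (edgeR adjusted p = 0.139).

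**Figure D4:**
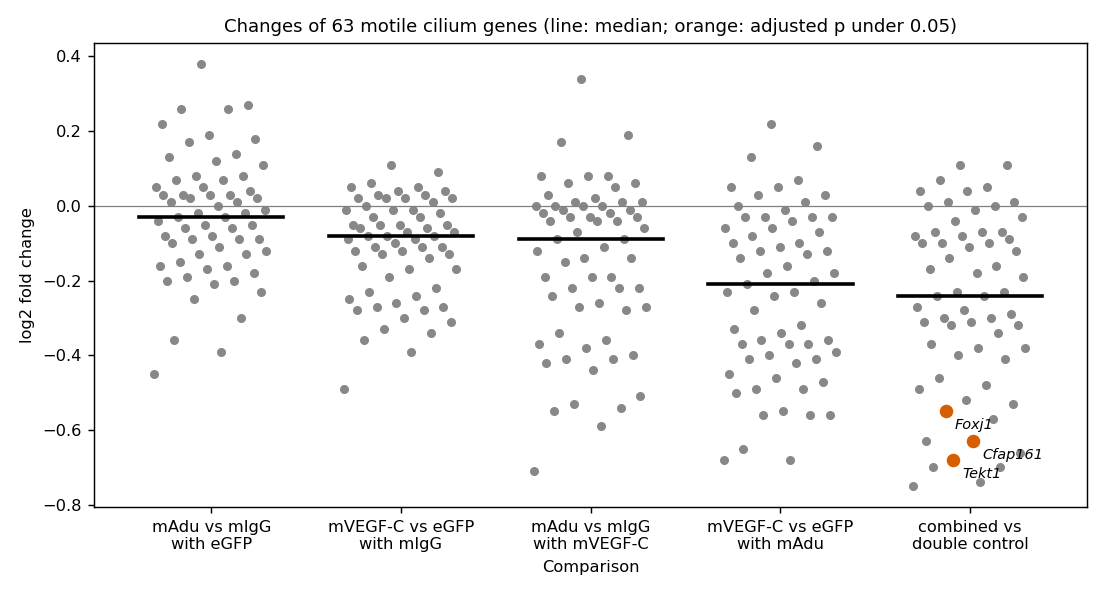
Each point is the log2 fold change of 1 of the 63 genes in the comparison named on the horizontal axis, with a black line at the median and orange points for adjusted p under 0.05. The medians are -0.03 and -0.08 for each treatment with the other control, -0.09 and -0.21 for each with the other treatment, and -0.24 for both together, where Tekt1, Foxj1 and Cfap161 are orange.

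The single-treatment comparisons ask what antibody or vector did alone and on top of the other. They share control groups with each other, and 0 of the 63 genes passed in any of the 4 with edgeR's quasi-likelihood test or DESeq2's Wald test. DESeq2 called between 20 and 126 of all genes in these 4 comparisons. The added limma-voom fit with sample quality weights called more of all genes (between 507 and 1234 in these 4 comparisons), and its counts for the 63 genes are given with each.

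With the control vector, mAdu against mIgG gave 36 negative changes and a median of -0.03, with 4 genes lower and 0 higher at an unadjusted p under 0.05. That is 6.35% of the 63 genes, against 9.21% of all genes, while 0.0336% of all genes were called by edgeR's test and limma-voom called 3 of the 63. The groups were apart downwards in 6 genes and upwards in 0, against 7.78% and 7.63% of all genes. The genes with the smallest p were Tekt1 (-0.45, edgeR adjusted p = 0.234), Dnah7b (-0.30, 0.454) and Cfap44 (-0.39, 0.47). Dnah7b was at 5.85, 5.39 and 5.78 CPM in eGFP+mIgG, 5.3, 4.35 and 4.18 in eGFP+mAdu, 4.44, 5.01 and 4.61 in mVEGF-C+mIgG, and 4.15, 4.85 and 4.75 CPM in mVEGF-C+mAdu. The double controls were above all other mice. Cfap44, a protein that tethers an inner arm dynein, was at 8.82, 5.95 and 7.88 CPM in eGFP+mIgG, 6.06, 4.57 and 6.86 in eGFP+mAdu, 6.48, 5.76 and 6.37 in mVEGF-C+mIgG, and 4.72, 6.23 and 5.39 CPM in mVEGF-C+mAdu, and mouse 2 overlapped with the eGFP+mAdu group. The median of the set turned with single libraries: it was 0.05 with 23 genes negative without mouse 1, and -0.09 with 46 negative without mouse 2. It was 0.06 (27 negative) without mice 5 and 6, and -0.02 without mice 3, 6, 9 and 12. The striatum markers had a median of 0.35 in this comparison (8 of 10 positive, 4 higher at an unadjusted p under 0.05, 0 called by edgeR's test). The medians were 0.03 over the choroid plexus markers and -0.05 over the meningeal fibroblast markers.

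With mIgG, mVEGF-C against eGFP gave 48 negative changes and a median of -0.08, with 4 genes lower and 0 higher at an unadjusted p under 0.05. That is 6.35% of the 63 genes, against 7.91% of all genes, while 0.0403% of all genes were called by edgeR's test and limma-voom called 1 of the 63. Without mouse 1 the median was 0.00, with 31 genes negative and 0 at an unadjusted p under 0.05, and without mouse 2 it was -0.15, with 54 negative and 11 under it. The counts under it over all 14881 genes were 696 without mouse 1 and 1427 without mouse 2. Without mice 3, 6, 9 and 12 the median of the set was -0.10. The groups were apart downwards in 6 genes and upwards in 1, Cfap36, against 5.99% and 6.38% of all genes. Rsph9 (-0.25, edgeR adjusted p = 0.554), Rfx2 (-0.49, 0.593) and Dnah7b (-0.28, 0.613) had the smallest p. The meningeal fibroblast markers had a median of -0.34 (16 of 17 negative, 4 at an unadjusted p under 0.05, 0 called by edgeR's test). The medians were -0.04 over the choroid plexus markers and 0.12 over the striatum markers.

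With mVEGF-C, mAdu against mIgG gave 47 negative changes and a median of -0.09, with 10 genes lower and 0 higher at an unadjusted p under 0.05. That is 15.9% of the 63 genes, against 12.7% of all genes, while 0.208% of all genes were called by edgeR's test and limma-voom called 8 of the 63. Without mouse 10, 39 genes were negative and 4 were at an unadjusted p under 0.05 (median -0.09), and without mouse 11 the median was -0.20, with 51 negative and 14 under it. The counts under it over all 14881 genes were 1437 without mouse 10 and 1896 without mouse 11. Without mice 3, 6, 9 and 12 the median of the set was -0.10. The groups were apart downwards in 7 genes and upwards in 0, against 8.12% and 8.37% of all genes. Cfap161 (-0.55, edgeR adjusted p = 0.152), Tekt1 (-0.41, 0.187) and Foxj1 (-0.41, 0.202) had the smallest p. The choroid plexus markers had a median of -0.35 in the same comparison, with 13 of 15 negative, and meningeal fibroblast and striatum markers both had one of -0.10.

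With mAdu, mVEGF-C against eGFP gave 54 negative changes and a median of -0.21, with 15 genes lower and 1 higher, Dnah9, at an unadjusted p under 0.05. That is 25.4% of the 63 genes, against 14.3% of all genes, while 0.047% of all genes were called by edgeR's test and limma-voom called 7 of the 63. Without mouse 10 the median was -0.15, with 47 genes negative and 5 at an unadjusted p under 0.05, and without mouse 11 it was -0.31, with 24 under it. Leaving out mouse 4, 6 or 12 left 9 or 10 genes under it. Over all 14881 genes 1626 were under it without mouse 10 and 2083 without mouse 11. The counts over all genes were 1338, 1724 and 1584 without mouse 4, 6 and 12. The median of the set was -0.27 without mice 5 and 6 and -0.17 without mice 3, 6, 9 and 12. The groups were apart downwards in 14 genes and upwards in 1, against 10.2% and 11.5% of all genes. Rsph4a (-0.45, edgeR adjusted p = 0.124), Cfap52 (-0.56, 0.185) and Foxj1 (-0.39, 0.198) had the smallest p. Cfap52, a protein of the doublet interior, was at 3.2, 4.7 and 3.13 CPM in eGFP+mIgG, 5.33, 3.87 and 4.91 in eGFP+mAdu, 2.97, 4.49 and 4.12 in mVEGF-C+mIgG, and 3.38, 2.91 and 3.3 CPM in mVEGF-C+mAdu. The eGFP+mAdu mice were above the mVEGF-C+mAdu mice, while the double controls overlapped with both. The choroid plexus markers had a median of -0.58, with 12 of 15 negative, and Ttr fell (-1.76, edgeR adjusted p = 0.0176). Ttr was 1 of the 7 genes that edgeR's test called among all 14881 in this comparison. Markers of other neighbouring tissue had negative medians too, with 0 called by edgeR's test: -0.48 over the meningeal fibroblast markers (17 of 17 negative, 10 at an unadjusted p under 0.05) and -0.47 over the striatum markers (10 of 10 negative, 5 under it). DESeq2 called 1 gene in each, Col1a2 and Drd1, and 104 of all 14881 genes in this comparison. The striatum markers were highest in the eGFP+mAdu group, at a mean centred level of 0.21. It was -0.07 in eGFP+mIgG, 0.02 in mVEGF-C+mIgG and -0.15 in mVEGF-C+mAdu. The part of these tissues in the values of the motile cilium genes was not tested.

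The interaction, which asks whether the effect of mAdu differed between vectors, passed in 0 of the 63 genes with edgeR's test (0.0134% of all genes). It passed in 0 with DESeq2 and in 2 with limma-voom, which called 8 and 220 of all genes. At an unadjusted p under 0.05 in edgeR's test 3 were lower and 0 higher, which is 4.76% of the 63 genes, against 6.82% of all genes. Rsph4a (-0.50, edgeR adjusted p = 0.642), Cfap52 (-0.65, 0.685) and Spag16 (-0.54, 0.716) had the smallest p. Spag16, a central pair protein, was at 2.58, 1.81 and 2.2 CPM in eGFP+mIgG, 2.56, 2.54 and 2.96 in eGFP+mAdu, 1.96, 2.39 and 2.48 in mVEGF-C+mIgG, and 1.54, 2.06 and 2.09 CPM in mVEGF-C+mAdu. The set's median interaction was -0.10, with 42 genes negative and a median SE of 0.225. It was -0.04 without mouse 2 (34 negative) and without mice 3, 6, 9 and 12 (39 negative), -0.17 without mouse 11 and -0.13 without mice 5 and 6.

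Averaged over vectors, Tekt1 fell with mAdu (log2 change -0.43, SE 0.086, edgeR adjusted p = 0.0383), 1 of 63 beside 0.571% of all genes. At an unadjusted p under 0.05 were 11.1% of the 63 genes and 15.5% of all genes, and the median of the set was -0.06 (-0.05 without mice 5 and 6, and without mice 3, 6, 9 and 12). All 3 mAdu mice were below all 3 mIgG mice for Tekt1 with either vector. Cfap161 (-0.39, edgeR adjusted p = 0.102) and Foxj1 (-0.29, 0.15) came next. DESeq2's Wald test gave an adjusted p of 0.0532 for Tekt1, and edgeR's test gave 0.101 without mouse 10. Averaged over antibodies, mVEGF-C gave 57 negative changes of 63 and a median of -0.17, with 0 genes passing edgeR's test (0.39% of all genes called). DESeq2 called 0 of the 63 and limma-voom 12, beside 148 and 1789 of all genes. At an unadjusted p under 0.05 in edgeR's test 15 were lower and 0 higher, or 23.8% of the 63 genes against 16% of all genes. The median was -0.11 without mouse 1 (9 genes under it) and without mouse 10 (7 under it), -0.23 without mouse 2 (22 under it), with between 8 and 10 genes under it without mouse 3, 4, 6 or 12. The counts under it over all 14881 genes were 1859, 1883 and 2510 without mouse 1, 10 and 2. They were between 1774 and 2051 without mouse 3, 4, 6 or 12. The median of the set was -0.20 without mice 5 and 6 and -0.14 without mice 3, 6, 9 and 12. Rsph9 (-0.22, edgeR adjusted p = 0.113), Rfx2 (-0.42, 0.158) and Cfap65 (-0.40, 0.183) had the smallest p. Cfap65 was at 5.27, 2.74 and 3.75 CPM in eGFP+mIgG, 3.81, 3.87 and 3.73 in eGFP+mAdu, 2.57, 3.26 and 3.55 in mVEGF-C+mIgG, and 2.42, 3.07 and 2.78 CPM in mVEGF-C+mAdu. The eGFP mice other than mouse 2 were above all mVEGF-C mice.

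Other genes of the motile axoneme, listed apart from the 63, were also mostly negative in the combined comparison, with 0 called by edgeR's test or DESeq2 in each of 4 lists and 2, 6, 4 and 0 by limma-voom. Of all genes in this comparison 20.4% were at an unadjusted p under 0.05, and DESeq2 called 436 and limma-voom 2660. The median was -0.28 over 14 outer arm and dynein chain genes (12 negative, 2 at an unadjusted p under 0.05), where Dnaic2, an outer arm intermediate chain, had -0.56 (edgeR adjusted p = 0.0906). It was -0.40 over 10 genes of the nexin link and the molecular ruler (9 negative, 7 at an unadjusted p under 0.05), -0.07 over 19 spoke and central pair genes (16 negative, 4 under it) and -0.06 over 10 assembly genes (7 negative, 1 under it). Of 34 further genes of ependymal cilia 32 were negative with a median of -0.34, and Tppp3, which encodes a tubulin-binding protein, fell by 0.35 on the log2 scale (edgeR adjusted p = 0.038). Ccdc153, an ependymal marker outside the rule, was between 7.18 and 9.35 CPM in the first 9 mice and at 4.15, 6.99 and 5.8 CPM in mice 10 to 12.

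Genes that motile and primary cilia share had other values in the combined comparison. There 20.4% of all 14881 genes were at an unadjusted p under 0.05. The counts called of all genes were 324 by edgeR's test, 436 by DESeq2 and 2660 by limma-voom. Intraflagellar transport and the BBSome carry cargo in both kinds of cilium, and all 40 listed genes of these systems and related genes were measured. The median of the list was 0.04, and 1 gene, Mkks, rose (0.25, edgeR adjusted p = 0.0237). At an unadjusted p under 0.05, 7 of the 40 were higher and 0 lower. DESeq2 called 1, also Mkks, and limma-voom 7. Over 20 genes of neuronal primary cilia the median was -0.10, with 0 called by edgeR's test (5 at an unadjusted p under 0.05, 3 lower and 2 higher), 1 by DESeq2 and 5 by limma-voom. Over 16 regulators of multiciliation it was -0.06, with 0 called by edgeR's test (3 at an unadjusted p under 0.05), 0 by DESeq2 and 2 by limma-voom. Of 16 ependymal or glial genes without a role in cilia 12 were negative with a median of -0.25, and Pltp and Vim fell (-0.29 and -0.50, edgeR adjusted p = 0.0262 and 0.032). Of the 15 choroid plexus markers 14 were negative with a median of -0.35, and Ttr and Slc13a4 fell (-1.62 and -0.96, edgeR adjusted p = 0.00895 and 0.0375). Meningeal fibroblast markers had a median of -0.43 over 17 genes, 16 of them negative, with 0 called by edgeR's test (7 at an unadjusted p under 0.05), 2 by DESeq2 and 6 by limma-voom. The striatum markers had a median of -0.10, with 8 of 10 negative, and the medians of the hippocampal neuron and astrocyte markers were both -0.02. Of the 12 astrocyte markers 1, Aldh1l1, fell with edgeR's test and with DESeq2 (means of 58.4 CPM in the double controls and 50.6 CPM in the combined group). Of the 16 hippocampal neuron markers edgeR's test called 0 and DESeq2 1, Dsp. Limma-voom called 3 in each of these 2 lists. Over 12 markers of neural stem cells and neuroblasts the median was -0.10, with 7 negative, and 1, Sox11, rose with edgeR's test and DESeq2. Their mean centred level was -0.56, -0.04 and -0.19 in mice 10, 11 and 12. The part of meningeal tissue in the level of the motile cilium set was not tested. When the choroid plexus level was added to the fit, the median of the 63 genes was 0.00 with 31 negative and 0 called, and its median SE rose from 0.159 to 0.297. The calls over all 14881 genes went from 324 to 3 with this level in the fit. Those at an unadjusted p under 0.05 went from 3029 to 1057. The choroid plexus level was itself lowest in the combined group, so that a shift of the motile cilium set with this level and one with the treatment cannot be told apart.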

How the data were processed

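Whole-number read counts per Ensembl gene for 12 libraries were deposited by the authors in 1 table. Per the labels' protocols, RNA was extracted with a PicoPure kit and linearly amplified before library construction, which can compress or skew levels of scarce transcripts. FastQC, Trim Galore, STAR, Subread, featureCounts, edgeR and the build mm10 are named in the submitters' processing notes; versions, the annotation and the strand setting were not stated there. Symbols came from GENCODE M21 (14791 of 14881 genes named), and reads of overlapping genes cannot be told apart by strand.

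Counts were tested in R 4.3.3 with edgeR 4.0.16 (TMM scaling, quasi-likelihood test, two-sided, Benjamini-Hochberg over all genes, threshold 0.05), with 1 mean per group over all 12 libraries. CPM and RPKM were computed from TMM-scaled totals, and centred log2 CPM with a prior count of 2. A p-value sets a difference between groups against the spread of mice within groups, estimated over all the libraries of a fit. It is too small if libraries share material. Replicate groups of 3 give no test of outliers.

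The genes and lists were chosen with earlier results of these data known. Named with all 12 values were Foxj1, the 8 genes of a followed list with the highest RPKM, each gene that passed, and the 3 with the smallest p in each comparison. From other lists, the genes that passed edgeR's test in the combined comparison are named. Further genes were chosen by the size of their values after these were seen. The test was checked on simulated counts. Alternatives were DESeq2 1.42.0 size factors and Wald test, limma 3.58.1 (voom, sample quality weights), no count filter, fits of only the groups compared, a choroid plexus covariate, other member sets and each library left out; leaving out libraries 5 and 6 was chosen after seeing the data.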

Additional observations from a re-analysis of the deposited data

How the results depend on the processing

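With limma-voom and sample quality weights, the number of the 63 genes called was 3 for mAdu with eGFP, 8 for mAdu with mVEGF-C, 1 for mVEGF-C with mIgG, 7 for mVEGF-C with mAdu, 21 for the combined comparison, 2 for the interaction, 7 for mAdu averaged over vectors and 12 for mVEGF-C averaged over antibodies. Of all 14881 genes it called 507, 1234, 937, 970, 2660, 220, 1681 and 1789 in the same order. In the combined comparison 0 were called with the choroid plexus covariate, 0 without libraries 3, 6, 9 and 12, 1 without libraries 5 and 6, and between 0 and 9 when each library was left out. Over all 14881 genes these settings called 3, 2 and 192, and between 12 and 594 with each library left out. For mAdu averaged over vectors 0 were called with DESeq2's Wald test, with the covariate, without libraries 3, 6, 9 and 12 or without libraries 5 and 6, and between 0 and 1 with each library left out. The counts over all genes were 217, 8, 1 and 43 in that order, and between 9 and 172 with each library left out. For mVEGF-C averaged over antibodies leaving out each library gave between 0 and 1 (Rsph9 without mouse 7). The same fits called between 4 and 253 of all genes, with 253 without mouse 7. With the covariate the median log2 change of the set was 0.05 for mAdu with mVEGF-C, 0.04 for mVEGF-C with mAdu, 0.00 for the combined comparison, 0.15 for the interaction and 0.02 for mVEGF-C averaged over antibodies, and Foxj1 had 0.16 for mVEGF-C with mAdu, a reversed sign. The cause of these shifts was not tested. Leaving out each library in turn moved the median from -0.09 to 0.05 for mAdu with eGFP and from -0.15 to 0.00 for mVEGF-C with mIgG, in both cases through mice 1 and 2. Without libraries 3, 6, 9 and 12 the combined changes were -0.70 in Tekt1, -0.48 in Foxj1 and -0.70 in Cfap161 (edgeR adjusted p = 0.56 for each, with 2 mice a group). Over all settings the adjusted p of Foxj1 ran from 0.000588 (limma-voom) to 0.98 (edgeR with the covariate). No fit of only the groups compared was made for the interaction and the averaged contrasts, which need all 4 groups. No paired analysis was possible because the sample numbers 1 to 12 are not shared between groups. Depth limits the genes near 1 CPM, such as Tekt4 and Dnaaf3.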
